A study of Mus musculus with 8 samples.

Results

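The genes described here encode 10 liver enzymes that break down serine, alanine, aspartate, histidine, proline and ornithine. They were taken by gene symbol from a list (Sds, Sdsl, Srr, Gpt, Gpt2, Got1, Hal, Uroc1, Prodh and Oat), and all 10 were among the 11784 genes of the deposited liver table. RNA came from 8 male C57BL/6J mice, for which the labels give no allele or agent other than the diet and which started an amino acid defined diet at 9 weeks of age. Of these, 4 received the Control diet (TD.140711) and 4 the Low AA diet (TD.140712), in which amino acids are reduced and carbohydrate is raised. All 8 livers were collected after about 4 months on the diets and after an overnight fast of about 16 hours, so both groups were fasted and neither represents the fed liver. Mice were housed in groups, and the cage of each mouse is not given in the labels.

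Liver is the main site at which most amino acids are broken down. The nitrogen passes to glutamate, aspartate or ammonia and on to urea, and in fasting the carbon skeletons supply pyruvate and citric acid cycle intermediates for glucose. Enzymes such as serine dehydratase and histidase are known for rising with dietary protein, glucagon and glucocorticoids, and several of them are placed by zone, with Sds and Hal toward the portal vein and Oat in the last hepatocytes around the central vein. The comparison asked how the transcripts of these enzymes stood in mice that had eaten few amino acids for months.

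Values are the authors' scaled read counts, rounded to whole numbers. Their column totals ran from 27876664 to 30799385 and their medians over genes from 433 to 449, so these totals do not show the original depth. All 8 hepatocyte markers were present, and their summed value was 2370071 to 2767402 in Control mice and 2599848 to 2815459 in Low AA mice. Control mouse F2212 had 36587 of the pancreas marker Cela1, against 130 to 288 in the other 7 mice, and the result without it is given beside the called gene. The summed values of macrophage, stellate cell, endothelial, blood and adipose markers overlapped between the diets. Of 6 adipose markers only 3 were in the table (Plin4, Fabp4 and Car3, with Car3 the largest in every mouse), so adipose tissue is poorly covered by that sum. The summed values of 4 cholangiocyte markers also overlapped, at 1124 to 2265 in Control mice and 826 to 1316 in Low AA mice. Spp1 was the largest of these in every mouse, at 929 to 2075 in Control and 755 to 1199 in Low AA mice. All 4 cholangiocyte markers had a negative log2 fold change (median -0.62). So did 4 of 5 blood markers (median -0.49) and 6 of 7 stellate cell markers (median -0.12). All 7 macrophage markers in the table had a positive one (median 0.24). Alas2 among the blood markers and Col1a1 among the stellate cell markers did not overlap between the diets (log2 fold change -0.49 and -1.07). In these lists limma called 0 genes, an unadjusted p under 0.05 was found for 2 cholangiocyte, 2 blood, 1 stellate cell and 1 macrophage marker, and no marker was at 0 in any mouse. Their part in the results was not tested.

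Srr fell on the Low AA diet, and it was the 1 enzyme of the 10 that passed the test. Srr encodes serine racemase, which turns L-serine into D-serine and can also split serine to pyruvate and ammonia. Its values were 2744 in mouse F129, 3050 in F2212, 3280 in F7111 and 2897 in F2110 on the Control diet. On the Low AA diet they were 1862 in H1126, 2041 in H828, 1978 in H817 and 2023 in H1315. All 4 Low AA mice lay below all 4 Control mice, and the mice within each diet were close together. The group values were 1976 ± 80.5 and 2993 ± 229 scaled read counts (SD, n = 4 each), and on the fitted scale Srr fell by 33.9%. The log2 fold change, Low AA minus Control on log2(value + 1), was -0.60 with a standard error of 0.09 and a 95% confidence interval from -0.80 to -0.40 (limma, adjusted p = 0.0253 over all genes tested).

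Of all genes tested, 0.399% were called at an adjusted p under 0.05 and 0.297% were called lower. Values did not overlap between diets in 6.81% of genes, and 11.8% had an unadjusted p under 0.05. For the 10 enzymes each of these counts was 1, and the gene was Srr in every case. In bulk liver, fewer cells that express a gene cannot be told apart from less RNA per cell. The call on Srr was close to the threshold. It passed with mouse F129, F2212 or F7111 left out (limma adjusted p = 0.0440, 0.0345 and 0.0413). It did not pass without H1126, H828, H817, H1315 or F2110 (limma adjusted p = 0.0914, 0.0650, 0.10, 0.0513 and 0.0571). The log2 fold change stayed between -0.64 and -0.55 in these 8 fits.

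**Figure D1:**
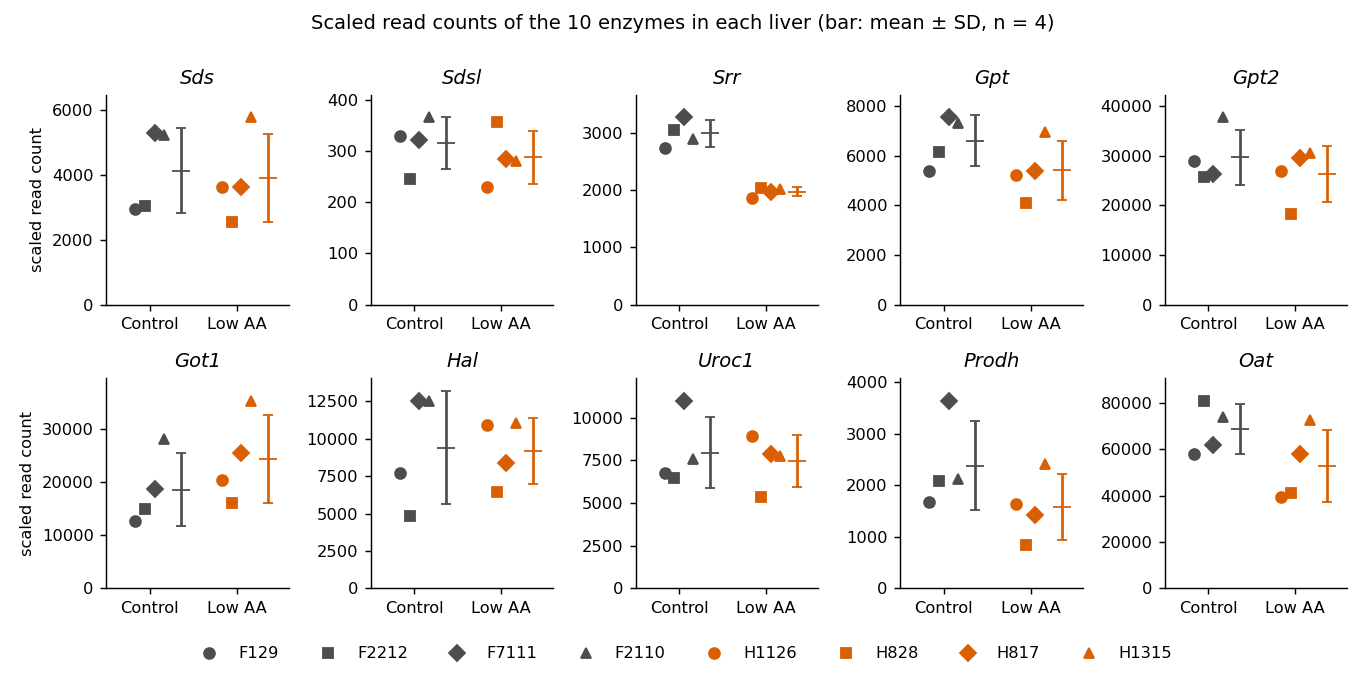
Scaled read counts (vertical axes, from 0) of the 10 enzymes, with 1 point per mouse, the shape naming the mouse, and bars for the mean ± SD of 4 mice. In the Srr panel the Low AA mice lie at 1862 to 2041, below the Control mice at 2744 to 3280, and in the other 9 panels the diets overlap.

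Srr lies on chromosome 11 from 74906359 to 74925948 on the minus strand of GRCm38, and it shares ground with a gene on the opposite strand at each end. By the GENCODE annotation its last 2984 bases overlap the end of Tsr1, a ribosome assembly factor, and 1240 of its 4560 exon bases are also exon of Tsr1. At its start, 126 exon bases are shared with the first exon of Smg6, a nuclease of nonsense-mediated decay. The libraries were strand specific, but whether counting used the strand is not given in the sources used here, so reads from the shared bases may not have been kept apart. Tsr1 and Smg6 were chosen after their position was seen.

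Tsr1 had 664, 508, 706 and 641 in Control mice F129, F2212, F7111 and F2110. It had 825, 768, 932 and 723 in Low AA mice H1126, H828, H817 and H1315. The Low AA mice lay above all Control mice, the opposite order to Srr, but the log2 fold change of 0.37 (standard error 0.13) did not pass (limma adjusted p = 0.279). Smg6 overlapped between the diets, with 965 to 1175 in Control mice and 987 to 1150 in Low AA mice and an estimate of 0.02 on the log2 scale (limma adjusted p = 0.965). The part of shared bases in the value of Srr was not tested.

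**Figure D2:**
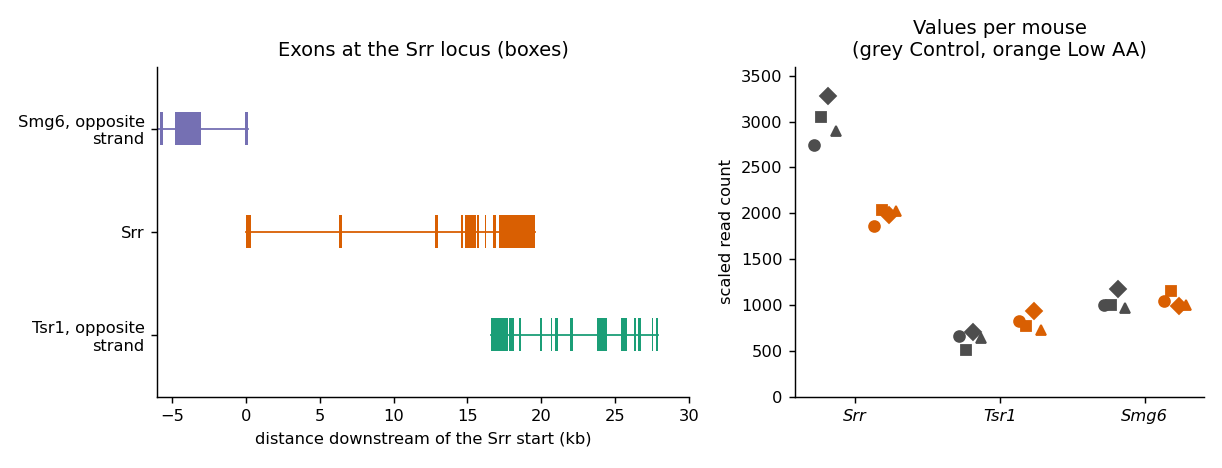
Left, exons (boxes) of Srr, Tsr1 and Smg6 by distance downstream of the Srr start in kb, with Smg6 running out of view. Right, scaled read counts per mouse from 0, grey for Control and orange for Low AA, with Srr lower, Tsr1 higher without passing the test, and Smg6 overlapping.

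The other enzymes that act on serine did not differ detectably. Sds encodes serine dehydratase, which deaminates serine and threonine in the cytosol. It lies on chromosome 5 from 120476526 to 120483932, next to its relative Sdsl at 120458186 to 120472810. By the annotation Sds overlaps 2 genes on the opposite strand, Plbd2 over 651 bases and Gm15690, which was not in the table, over 1062 bases. Sds had 2940, 3033, 5281 and 5228 in Control mice F129, F2212, F7111 and F2110, and 3631, 2550, 3632 and 5781 in Low AA mice H1126, H828, H817 and H1315. The lowest and the highest value of all 8 were both in Low AA mice, and the Control mice fell into a lower and a higher pair. The log2 fold change was -0.09 with a 95% confidence interval from -0.68 to 0.51 (limma adjusted p = 0.939), so these data leave room for changes of Sds in either direction up to those bounds. Sdsl, serine dehydratase-like, had 246 to 366 in Control mice and 229 to 356 in Low AA mice, with a log2 fold change of -0.14 (95% confidence interval -0.50 to 0.23, limma adjusted p = 0.812), which was -0.035 without H1126, -0.063 without F2110 and -0.25 without F2212 or H828.

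The serine enzymes differed widely in level. Per kilobase of exon, Sds was 11.5 ± 2.81 times Sdsl in Control mice and 12.5 ± 4.97 times Sdsl in Low AA mice (SD, n = 4 each). Sds was 3.69 ± 1.07 times Srr per kilobase in Control mice and 5.31 ± 1.79 times Srr in Low AA mice (SD, n = 4 each), ranges that overlapped. The log2 difference Sds minus Sdsl within a mouse, from which a single scale factor per mouse would drop out, was 3.66 ± 0.38 in Control and 3.71 ± 0.65 in Low AA mice (SD, n = 4 each).

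The alanine and aspartate aminotransferases overlapped between diets. Gpt encodes the cytosolic alanine aminotransferase, which links alanine to pyruvate, and lies on chromosome 15 from 76695716 to 76699686. It had 5383, 6144, 7558 and 7325 in Control mice F129, F2212, F7111 and F2110, and 5213, 4094, 5368 and 6955 in Low AA mice H1126, H828, H817 and H1315. Of the Low AA mice 3 lay below every Control mouse and H1315 did not. Low AA minus Control was -0.30 on the log2 scale (95% confidence interval -0.67 to 0.07, limma adjusted p = 0.538), and -0.17 without H828. Gpt2, the mitochondrial form, had 25677 to 37811 in Control mice and 18198 to 30546 in Low AA mice, with a log2 fold change of -0.19 (95% confidence interval -0.59 to 0.22, limma adjusted p = 0.771). Without H828 the Gpt2 estimate was -0.018 and without F2110 it was -0.063. Per kilobase of exon Gpt2 was 2.37 ± 0.463 times Gpt in Control mice and 2.54 ± 0.286 times Gpt in Low AA mice (SD, n = 4 each).

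Got1 had the largest positive log2 fold change of the 10 enzymes. Got1 encodes the cytosolic aspartate aminotransferase of the malate-aspartate shuttle, on chromosome 19 from 43499752 to 43524605. Its values were 12616, 14976, 18770 and 28063 in Control mice F129, F2212, F7111 and F2110, and 20408, 16105, 25468 and 35333 in Low AA mice H1126, H828, H817 and H1315. The highest value was 2.22 times the lowest in Control mice and 2.19 times in Low AA mice, and 1 Low AA mouse, H1315, lay above every Control mouse. On the log2 scale the difference was 0.39 (95% confidence interval -0.22 to 1.01, limma adjusted p = 0.653). Without Control mouse F2110 it was 0.61 and without H1315 it was 0.19.

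The first enzymes of histidine breakdown gave no difference in either direction that could be separated from the spread. Hal, on chromosome 10 from 93488768 to 93519304, encodes histidase, which removes ammonia from histidine to give urocanate. It had 7706, 4862, 12504 and 12549 in Control mice F129, F2212, F7111 and F2110, and 10899, 6424, 8353 and 11056 in Low AA mice H1126, H828, H817 and H1315. All 4 Low AA values fell inside the Control range, which spanned 2.58-fold, the widest Control range of the 10 enzymes. For Hal the estimate on the log2 scale was 0.03 (95% confidence interval -0.63 to 0.70, limma adjusted p = 0.983), and without Control mouse F2212 it was -0.25. Uroc1, on chromosome 6 from 90333284 to 90364551, encodes urocanase, the next enzyme. It had 6470 to 10984 in Control mice and 5321 to 8894 in Low AA mice, with a log2 fold change of -0.08 (95% confidence interval -0.52 to 0.35, limma adjusted p = 0.916).

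Prodh and Oat, the mitochondrial enzymes that turn proline and ornithine toward glutamate, had lower means on the Low AA diet without passing the test. Prodh, proline dehydrogenase, lies on chromosome 16 from 18060357 to 18090203. It had 1681, 2079, 3640 and 2112 in Control mice F129, F2212, F7111 and F2110, and 1629, 846, 1426 and 2409 in Low AA mice H1126, H828, H817 and H1315. Of the Low AA mice 3 lay below every Control mouse, and H1315 lay above 3 of the 4 Control mice. The log2 fold change of -0.63 was larger in size than that of Srr, but its standard error of 0.31 was more than 3 times as large (95% confidence interval -1.31 to 0.06, limma adjusted p = 0.475). It was -0.36 without Low AA mouse H828 and -0.86 without H1315. By the annotation Prodh overlaps Dgcr6 on the opposite strand.

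Oat, ornithine aminotransferase, lies on chromosome 7 from 132557478 to 132576398, inside the long annotated span of Fgfr2 on the same strand. It had 57915, 81005, 62045 and 74059 in Control mice F129, F2212, F7111 and F2110, and 39484, 41356, 57939 and 72709 in Low AA mice H1126, H828, H817 and H1315. Mice H1126 and H828 lay below every Control mouse, H817 lay just above the lowest Control mouse, and H1315 lay within the Control range. Oat had a log2 fold change of -0.41 (95% confidence interval -0.86 to 0.04, limma adjusted p = 0.474), and with 1 mouse left out it ran from -0.58 without H1315 to -0.29 without H1126. The within-mouse log2 difference Oat minus Prodh was 4.90 ± 0.55 in Control and 5.12 ± 0.45 in Low AA mice (SD, n = 4 each).

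**Figure D3:**
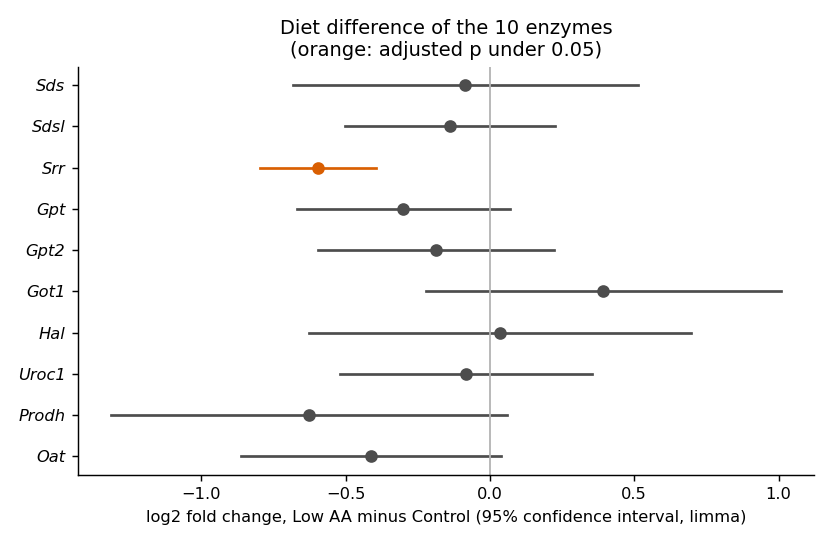
Log2 fold change, Low AA minus Control, of each enzyme (points) with its 95% confidence interval from limma (lines). The interval of Srr, in orange, runs from -0.80 to -0.40, and the intervals of the other 9 all include 0, with Prodh the widest at -1.31 to 0.06.

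As a group, 8 of the 10 enzymes had a negative log2 fold change and 2 a positive one, with a median of -0.16 against 0.00 over all genes tested. The 9 enzymes that did not pass all had confidence intervals that included 0. The median was -0.080 without Control mouse F2110, -0.096 without H828, -0.25 without F2212 and -0.28 without H1315. Without H1315, 3 enzymes (Srr, Gpt and Prodh) did not overlap between the diets, beside 12.7% of all genes with that mouse left out. In that fit 4 enzymes had an unadjusted p under 0.05, beside 12.2% of all genes, and 0 of the 10 were called by limma.

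The level per kilobase of exon, with length taken as the union of annotated exons, placed the enzymes in the same order of means on both diets. With the longest transcript as length, Gpt stood above Uroc1 in Control mice (2355 and 2293 per kilobase) and below it in Low AA mice (1929 and 2152). Oat was highest, at 29134 ± 4516 per kilobase in Control mice and 22403 ± 6615 in Low AA mice (SD, n = 4 each), and in neither diet did it overlap the next, Got1. Oat alone was 0.197% to 0.279% of the summed value of all genes in Control mice and 0.139% to 0.236% in Low AA mice. With the union length, Got1 and Gpt2 followed, overlapping each other in Control mice and not in Low AA mice. Sds, Uroc1, Gpt and Hal came next, and neighbours among these overlapped in both diets, while Gpt2 and Sds overlapped in Low AA mice and not in Control mice. Srr stood alone below them, at 656 ± 50.1 and 433 ± 17.7 per kilobase in Control and Low AA mice (SD, n = 4 each), overlapping neither Hal above nor Prodh below. Prodh and Sdsl were lowest and overlapped each other. Some of these overlaps depended on the length used. With the longest transcript, Got1 and Gpt2 overlapped in both diets and Gpt2 and Sds in neither. Prodh and Sdsl then overlapped in Low AA mice only.

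**Figure D4:**
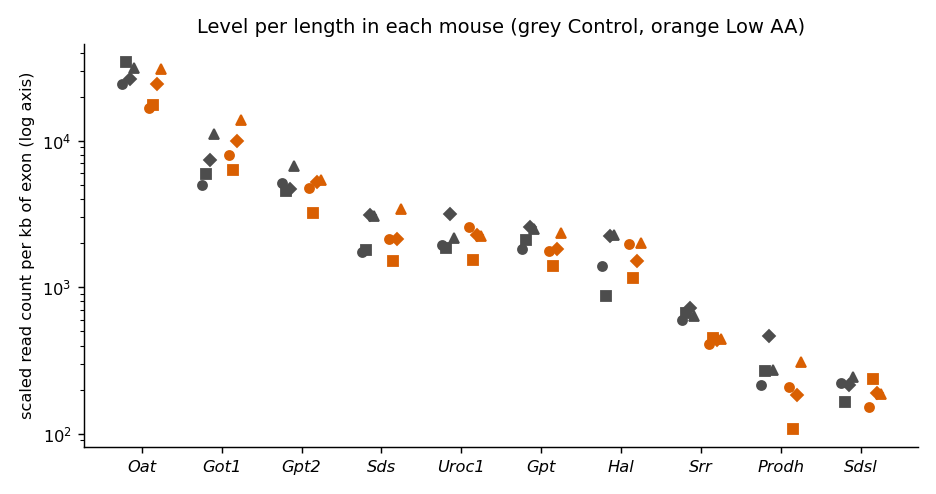
Scaled read count per kilobase of exon (log axis) of each enzyme in each mouse, grey for Control and orange for Low AA, in the order of the Control means. Oat lies highest and Prodh and Sdsl lowest, and Srr lies between them and the group of Hal, Gpt, Uroc1 and Sds.

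Variation between mice of 1 diet was large for most of these enzymes and often ran the same way. Among Low AA mice, H828 had the lowest value for 7 enzymes (Sds, Gpt, Gpt2, Got1, Hal, Uroc1 and Prodh) and H1315 the highest for 7 (the same but with Oat in place of Uroc1). Over all genes tested, H828 was the lowest Low AA mouse for 29.2% and H1315 the highest for 30.7%. The median deviation of the 10 enzymes from their mean over the 8 mice was -0.51 on the log2 scale in H828 and 0.27 in H1315. The same deviation over all genes was 0.00 in both mice. Among Control mice, F129 and F2212 held the lowest value of every enzyme, 6 and 4 of them, while F7111 and F2110 held the highest of 9. Over all genes F129 was the lowest Control mouse for 16.1% and F2212 for 30.7%, while F7111 was the highest for 28.6% and F2110 for 19.3%.

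Srr and Sdsl departed from this order in the Low AA mice, since H828 was the highest of the 4 for both. Srr was also the least variable, with a highest value 1.2 times the lowest in Control mice and 1.10 times in Low AA mice. For the other 9 enzymes this ratio ran from 1.40 to 2.58 in Control mice and from 1.55 to 2.85 in Low AA mice. The same 2 mice were often lowest and highest in other gene lists too. Of 8 genes of phenylalanine and tyrosine breakdown H828 was lowest for 5 and H1315 highest for 8, and of 15 further genes of serine, glycine and threonine breakdown the counts were 11 and 9. Of 11 pericentral markers they were 7 and 6, and of 11 urea cycle genes 5 and 6, where H1126 was also lowest for 5. Of 13 hormone and fasting regulators they were 2 and 4, and there H828 was highest for 6 and H1315 lowest for 4.

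The neighbouring steps of these pathways gave no call. Of 98 distinct genes in 10 lists of related genes, some of them in more than 1 list, limma called 0, and 13 had an unadjusted p under 0.05. Over all genes tested these shares were 0.399% and 11.8%. For serine, glycine and threonine, 15 of 17 listed genes were in the table, with a median log2 fold change of -0.08. The smallest p there belonged to Shmt2, mitochondrial serine hydroxymethyltransferase, with 4216 to 4994 in Control mice and 3621 to 4500 in Low AA mice (log2 fold change -0.24, limma adjusted p = 0.409). Agxt2, a mitochondrial aminotransferase, came next (-0.33, limma adjusted p = 0.535).

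For alanine and aspartate, 10 of 11 listed genes were in the table, with a median log2 fold change of 0.01. Slc25a12, a mitochondrial aspartate-glutamate carrier that works in the same shuttle as Got1, had 613, 495, 517 and 705 in Control mice F129, F2212, F7111 and F2110. It had 796, 779, 818 and 874 in Low AA mice H1126, H828, H817 and H1315. All Low AA mice lay above all Control mice, but the log2 fold change of 0.50 did not pass (limma adjusted p = 0.133). For Mdh2, mitochondrial malate dehydrogenase, it was 0.24 (limma adjusted p = 0.416), and Got2, the mitochondrial partner of Got1, had 0.07 (limma adjusted p = 0.833).

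For histidine, 7 of 9 listed genes were in the table, with a median log2 fold change of 0.06. Amdhd1 and Ftcd, which act after Uroc1, stood at log2 fold changes of 0.20 and -0.07 (limma adjusted p = 0.658 and 0.892). Hnmt, which methylates histamine, had -0.35 (limma adjusted p = 0.335), and Hdc, which makes histamine from histidine, had 0.61 (limma adjusted p = 0.448). For proline and ornithine, 10 of 11 listed genes were in the table, with a median of -0.06. Pepd, which releases proline from dipeptides, had 762 to 918 in Control mice and 696 to 759 in Low AA mice, without overlap (log2 fold change -0.21, limma adjusted p = 0.419). Odc1, ornithine decarboxylase, had 0.29 (limma adjusted p = 0.530). Prodh2, hydroxyproline dehydrogenase, and Aldh4a1, which follows Prodh, had -0.12 and -0.09 (limma adjusted p = 0.806 and 0.846).

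For pyruvate handling and the path to glucose, 14 of 14 listed genes were in the table, 11 with a positive log2 fold change and a median of 0.16. Of these 14, 0 were called and 4 had an unadjusted p under 0.05. Over all genes tested, 5955 of 11784 had a positive log2 fold change and 11.8% an unadjusted p under 0.05. G6pc, glucose-6-phosphatase, had 14286 to 26518 in Control mice and 21527 to 46361 in Low AA mice (log2 fold change 0.71, limma adjusted p = 0.282). Mpc2, a subunit of the mitochondrial pyruvate carrier listed as Brp44, had 0.32 (limma adjusted p = 0.299). Pcx and Pck1, which carry pyruvate to phosphoenolpyruvate, had 0.15 and -0.13 (limma adjusted p = 0.630 and 0.797). Among 13 hormone and fasting regulators, 0 were called and 0 had an unadjusted p under 0.05. A positive log2 fold change was found for 11 and a negative one for 2, Gcgr and Cebpa, with a median of 0.10. Gcgr, the glucagon receptor, had -0.25 (limma adjusted p = 0.435), Cebpa, a hepatocyte transcription factor, had -0.35 (limma adjusted p = 0.521), and Klf15, a fasting-induced regulator of amino acid breakdown, had 0.16 (limma adjusted p = 0.678).

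In the urea cycle and glutamate deamination 0 of 11 genes were called and 0 had an unadjusted p under 0.05, with a median log2 fold change of -0.17, and in phenylalanine and tyrosine breakdown the counts were 0 and 0 of 8, with a median of -0.02. Nags, which makes the activator of the urea cycle, and Slc25a15, the mitochondrial ornithine carrier, had the smallest p of the former (log2 fold change -0.28 and 0.25, limma adjusted p = 0.459 and 0.533), and Hpd, an oxygenase of tyrosine breakdown, of the latter (-0.30, limma adjusted p = 0.456). These lists were not tested against the 10 enzymes.

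By zone, 10 periportal markers outside the enzymes had a median log2 fold change of -0.06 and 11 pericentral markers one of -0.16. In each list 0 were called and 2 had an unadjusted p under 0.05. Of the periportal markers 5 had a positive log2 fold change and 5 a negative one, and of the pericentral markers 3 and 8. The largest positive periportal estimates were 0.30 for Arg1 and 0.28 for Cps1 (limma adjusted p = 0.735 and 0.783). Etnppl, listed as Agxt2l1, which breaks down phosphoethanolamine, had 3989 to 6325 in Control mice and 1681 to 2931 in Low AA mice, without overlap (log2 fold change -1.01, limma adjusted p = 0.0738). Cyp2f2, a cytochrome P450, also did not overlap, with 14724 to 26941 and 10826 to 13212 (log2 fold change -0.77, limma adjusted p = 0.131). Of the pericentral markers, Cyp1a2 and Slc1a2 had -0.59 and -0.47 (limma adjusted p = 0.245 and 0.289), and Glul, glutamine synthetase, which shares the innermost pericentral zone with Oat, had -0.16 (limma adjusted p = 0.736).

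**Figure D5:**
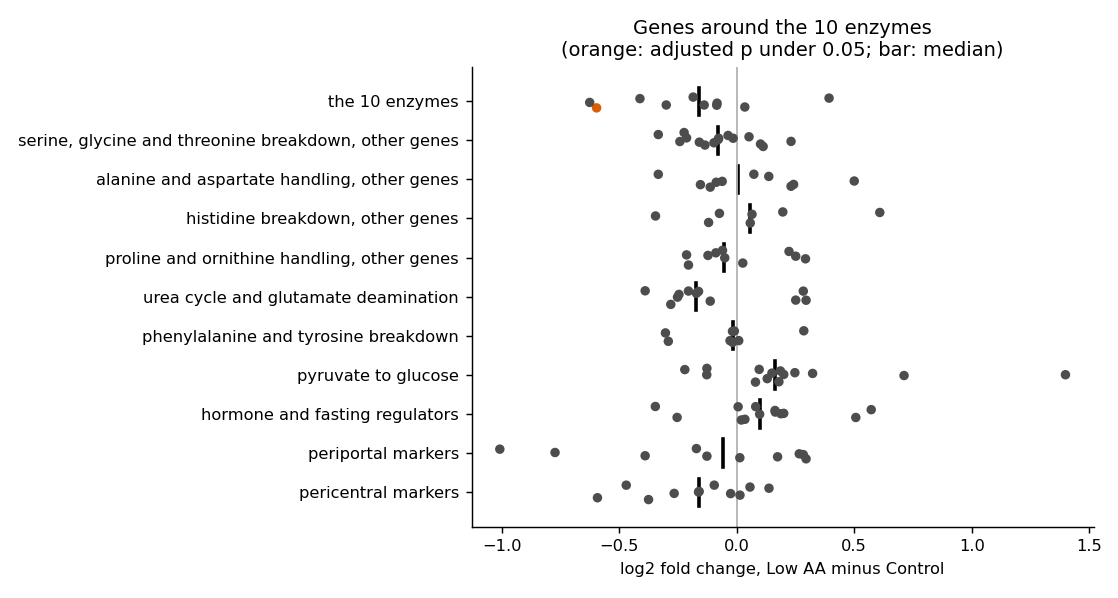
Log2 fold change, Low AA minus Control, of the 10 enzymes and of the genes in 10 lists around them, with 1 point per gene and a bar at each list's median. Srr is the 1 orange point, called at an adjusted p under 0.05, and the medians lie between -0.17 and 0.16.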

How the data were processed

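Liver poly(A) RNA of 4 Control and 4 Low AA mice was sequenced from stranded libraries. The authors deposited 1 table with a signal per gene and mouse, a scaled and rounded read count, beside their own fold change and FDR, which were not used. The submitters' processing notes name mm10, STAR 2.5.0a, RSEM 1.2.6 and edgeR 3.10.5. How the scaling and the removal of low genes were done is not given in the sources used here. Since the values are not raw counts, precision was taken from the spread between mice.

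After adding 1 and taking log2, the diets were compared by limma (version 3.58.1, R version 4.3.3) with diet as the only term and moderation that follows the mean-variance trend. P-values were adjusted by Benjamini-Hochberg across 11784 genes, and genes were called under 0.05. The procedure was run on simulated data with independent noise for each gene. Those data do not hold the shared variation of genes within a mouse, so they cannot show how it affects the calls. Members and lists were chosen with earlier results of these data known. Named were the members, called or 2 smallest-p genes of each list, and pathway neighbours, of which 1 gene is not reported here. Older symbols, 5 in all, were matched through RefSeq synonyms. Positions and exon lengths (union over transcripts) are from GENCODE M21 on GRCm38, the build of mm10. Alternatives were pseudocounts of 0.1 and 5, the 8000 genes of highest mean, equal column totals, no trend, robust moderation, an adjusted p under 0.1, each mouse left out, and, added after the values were seen, the longest transcript as length. Of the markers, 0 of 5 for muscle, 1 of 11 for pancreas and 3 of 6 for adipose tissue were in the table. Figures were drawn with matplotlib 3.10.9.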

Additional observations from a re-analysis of the deposited data

Results flagged for a closer look

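Within each diet, 84 groups of 4 mice were examined for a mouse far from the other 3. The gap over range was taken on log2(value + 1), not on the counts printed here. Of these 84 groups 4 stood out, a share close to the 1 in 20 or so that chance gives. None of the 20 groups of the 10 enzymes was among them. Cela1 stood out in Control mouse F2212 (gap over range 0.945). Shmt2 was lower in Control mouse F2110, at 4216, than in the other Control mice at 4945 to 4994 (gap over range 0.942). Prodh2 was higher in Low AA mouse H1315, at 4095, than in the other Low AA mice at 3130 to 3220 (gap over range 0.895). Hnmt was higher in Low AA mouse H1126, at 333, than in the other Low AA mice at 239 to 248 (gap over range 0.889).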

How the results depend on the processing

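No paired analysis was possible because the mouse codes are not shared between the diets. In all, 47 genes were called, and 19 among the 8000 genes of highest mean, 30 without a mean-variance trend, 132 at an adjusted p under 0.1, and 16 to 77 with a mouse left out (29 without F129, 77 without F2212, 21, 19 and 16 without H1126, H828 and H817). Of the 10 enzymes Srr was called in the main comparison. Among them 0 were called without a trend, where 1 had an unadjusted p under 0.05 and Srr an adjusted p of 0.0569 by limma, and 0 to 1 with a mouse left out. Under the other settings Srr stayed called, with adjusted p from 0.0249 to 0.0324 by limma. The count without overlap was 1 to 3 with a mouse left out, 3 without H1315. With a mouse left out, the log2 fold change ran from -0.30 to 0.10 for Sds, from -0.25 to 0.21 for Hal and from -0.18 to 0.083 for Uroc1. The other 7 enzymes kept their sign under every alternative run. With the longest transcript as length, the Control level per kilobase was 809 for Srr, 8157 for Gpt2 and 481 for Prodh, against 656, 5260 and 305, and Gpt moved above Uroc1 in Control mice, not in Low AA mice. Overlaps in level also changed for Got1 with Gpt2, for Gpt2 with Sds and for Prodh with Sdsl.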
